A study of Homo sapiens with 6 samples.

Results

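The cyclins, kinases and inhibitors that govern passage through G1 were examined in human embryonic stem cells (hESCs) and in the neuromesodermal progenitor-like (NMP-L) cells derived from them. The 10 genes were taken by symbol from the 27672 genes of the expression table, and comprised the D cyclins CCND1, CCND2 and CCND3, the E cyclins CCNE1 and CCNE2, the kinases CDK4 and CDK6, and the CIP/KIP inhibitors CDKN1A (p21), CDKN1B (p27) and CDKN1C (p57). D cyclins are induced by mitogen signalling and bind CDK4 or CDK6, and these complexes phosphorylate the retinoblastoma (pocket) proteins, which releases E2F factors and allows transcription of the genes of DNA replication. E cyclins then activate CDK2 at the entry to S phase, and CIP/KIP proteins bind cyclin-CDK complexes, inhibiting CDK2 while also helping D cyclins to assemble with their kinases. Pluripotent cells are known for a short G1 phase, which lengthens as they differentiate.

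Polyadenylated RNA was sequenced from the H9 line, an established hESC line, in 3 libraries of undifferentiated cells (hESC, D0) and 3 libraries of NMP-L (D3) cells. The hESCs, labelled untreated, were kept without feeders in a medium that held bFGF at 30 ng/ml together with Noggin, a BMP antagonist, at 10 ng/ml. NMP-L cells were made by 3 days in N2/B27 basal medium to which bFGF had been added at 20 ng/ml and CHIR99021, a GSK3 inhibitor that activates WNT signalling, at 3 µM, so that the labels give bFGF in both conditions and a change of medium together with CHIR99021. The study's methods name another medium (TESR) for the hESCs. They also describe inhibitors of BMP and TGFβ (Noggin and SB431542) in the step towards neural progenitors, in a window that opens before D3 and closes after it. The labels of the NMP-L (D3) libraries do not list these inhibitors, and whether the sequenced NMP-L cells had met them is not given in the sources used here. The labels call the libraries biological replicates but do not say whether they are separate differentiations, and p-values measure the spread between these libraries.

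Library totals, in counts, ran from 19454543 to 19744142 for hESCs and from 20687062 to 23036426 for NMP-L cells, and a floor of 3 counts stood for between 0.125 and 0.160 CPM (counts scaled to the library total and by TMM factors, which centre the libraries on the bulk of genes). Of 6 pluripotency genes, 5 were lower in NMP-L cells and none was higher, with NANOG at 1831, 1887 and 1655 counts before and 340, 332 and 372 counts after differentiation. Of 8 NMP genes, 6 were higher, among them T (Brachyury) with 0, 0 and 2 counts against 537, 293 and 629, while SOX2 passed no test and FGF17 was lower. Of 6 endoderm genes, FOXA2 and HHEX were higher, CXCR4 passed no test and the others were not tested, with SOX17 and CER1 at or under the floor in every library; the list summed to between 5.20 and 6.06 CPM in hESCs and between 20.3 and 32.2 CPM in NMP-L cells. Of 5 paraxial mesoderm genes 2 were lower (TBX6 and TCF15) and the others were not tested. Their summed level was 9.24 to 12.3 CPM in hESCs and 3.43 to 4.36 CPM in NMP-L cells. Untested MSGN1 had 0 counts in each hESC library and 7, 4 and 2 in NMP-L cells. Of 4 neural crest genes 2 were lower (SOX10 and FOXD3) and the others were not tested, with TFAP2B at 0 in every library. That list summed to 25.8 to 30.8 CPM and 3.58 to 4.22 CPM, with FOXD3 alone at means of 21.2 and 0.726 CPM. Of 7 neural genes SOX1 was higher and TUBB3 lower, and the list summed to between 239 and 269.5 CPM and between 148 and 174 CPM. Whether cells with these markers contributed to the values below was not tested, and in bulk RNA fewer cells of a type and less RNA per cell cannot be told apart.

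Relative to the bulk of transcripts, NMP-L cells held more transcript of CDKN1A, CCND1, CDK6, CDKN1B and CDK4 than hESCs and less of CCNE1, with CDKN1A changing most (2.49-fold) and the other 5 by between 1.22-fold and 1.46-fold. All 10 genes passed the filter on low counts. In the edgeR quasi-likelihood fit across 15517 genes, 6 of the 10 passed an adjusted p of 0.05, 5 higher and 1 lower in NMP-L cells, where 55.8% of all tested genes passed (29.1% higher and 26.7% lower). A count of 6 of 10 is close to that background, and the transcriptome as a whole had moved between these conditions. CDKN1A was the 1 gene of the 10 that also passed a 2-fold change, which 18.6% of tested genes did (9.38% higher and 9.18% lower). The libraries of the conditions did not overlap for 6 of the 10 genes (5 higher and 1 lower in NMP-L cells), against 61.6% of all tested genes (32.1% higher and 29.5% lower). The median log2 fold change of the 10 genes was 0.41, against 0.028 for all tested genes, and the median of the absolute changes was 0.51 against 0.40. An exact permutation test of 3 libraries against 3 cannot give a p under 0.1, and each of the 6 genes that passed the fit reached that value.

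**Figure D1:**
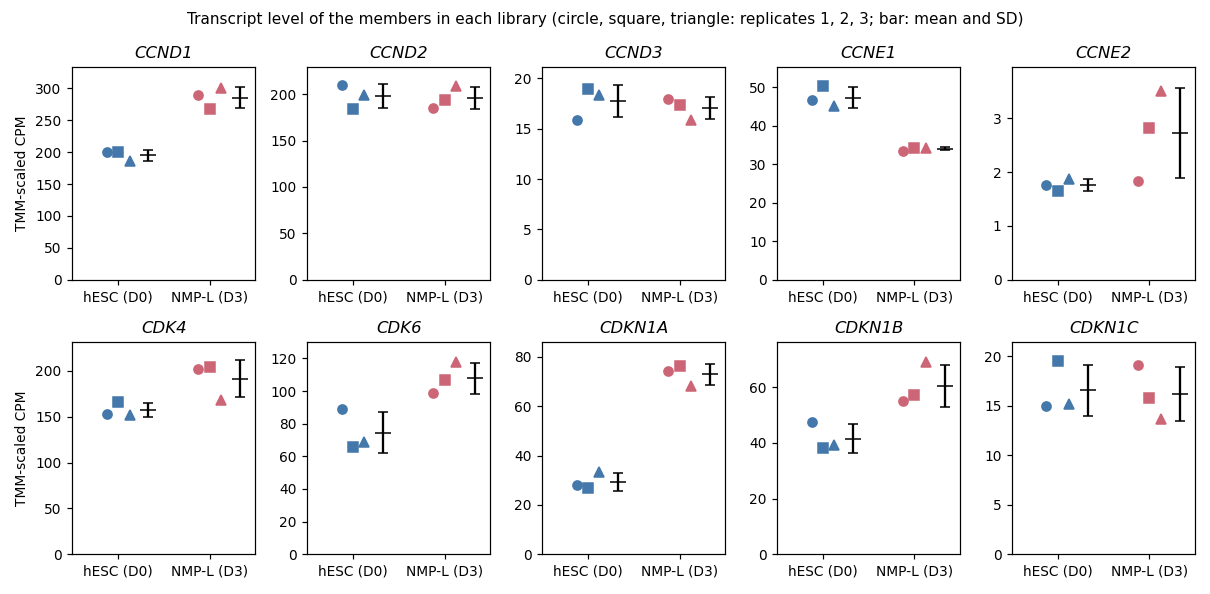
Level of each of the 10 genes in each library, in CPM scaled by TMM factors (y axis, linear from 0 in each panel), in hESC (D0) and NMP-L (D3) libraries; circles, squares and triangles are replicates 1, 2 and 3, and the bar gives mean and SD. CDKN1A lay between 26.7 and 33.2 CPM in hESCs and between 68.1 and 76.3 CPM in NMP-L cells, while CCND2, CCND3, CCNE2 and CDKN1C overlapped between the conditions.

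Of the 10 genes, 6 matched a RefSeq promoter table by symbol (all but CCND1, CCND2, CCNE2 and CDKN1C), with 9 windows running from 250 bases before to 50 bases after a transcription start. The windows come from a GRCh38.p14 table and were placed on GRCh37, the build of the expression data, where each had 1 exact match. The 250 bases before the start are printed for the gene that changed most (CDKN1A), the gene that was lower in NMP-L cells (CCNE1) and the kinase with the highest level (CDK4), 5′ to 3′ on the strand of the gene. Capitals mark GC boxes (GGGCGG, or CCGCCC where the box lies on the opposite strand) and E-boxes (CACGTG, the same on both strands), which were chosen after the sequences had been seen.
CDKN1A, GRCh37 chr6:36646241-36646490, plus strand: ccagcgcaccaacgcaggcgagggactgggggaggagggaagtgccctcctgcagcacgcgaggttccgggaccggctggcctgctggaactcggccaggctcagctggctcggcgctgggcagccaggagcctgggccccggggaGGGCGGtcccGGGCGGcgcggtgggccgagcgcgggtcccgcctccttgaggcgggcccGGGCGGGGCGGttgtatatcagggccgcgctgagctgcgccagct
CCNE1, GRCh37 chr19:30302648-30302897, plus strand: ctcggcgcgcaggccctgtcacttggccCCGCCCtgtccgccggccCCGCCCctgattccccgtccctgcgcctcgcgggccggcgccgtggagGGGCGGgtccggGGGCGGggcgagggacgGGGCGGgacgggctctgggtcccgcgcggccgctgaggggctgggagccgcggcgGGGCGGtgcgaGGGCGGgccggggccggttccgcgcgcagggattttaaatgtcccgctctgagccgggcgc
CDK4, GRCh37 chr12:58146094-58146343, minus strand: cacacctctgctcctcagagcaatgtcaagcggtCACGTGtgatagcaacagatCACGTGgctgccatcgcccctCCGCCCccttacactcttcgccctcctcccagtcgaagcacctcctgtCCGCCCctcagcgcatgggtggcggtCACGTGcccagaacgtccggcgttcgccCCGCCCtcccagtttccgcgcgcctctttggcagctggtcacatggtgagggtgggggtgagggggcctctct

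The CDKN1A stretch held 4 GC boxes, of which the last pair share a base, and the CCNE1 stretch held 7. The CDK4 stretch held 3 GC boxes and 3 E-boxes, with the E-boxes starting at -216, -196 and -101 from the start. A GC box lay in 7 of the 9 windows and in 45.0% of 35116 RefSeq windows of the same length, and an E-box in 2 of the 9 (CDK4 and 1 of 2 for CDK6) and in 7.26% of all windows. Letters of the E2F motif (TTTCCCGC, TTTCGCGC, TTTGCCGC or TTTGGCGC, on either strand), held by 3.31% of all windows, were in 0 of the 9, as were those of the TCF/LEF motif (CTTTGATC, CTTTGATG, CTTTGAAC or CTTTGAAG, on either strand), held by 3.22%. These matches describe letters in the windows and are not evidence of binding.

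Among the D cyclins, CCND1 was higher in NMP-L cells while CCND2 and CCND3 passed no test. CCND1, a target of mitogen and WNT signalling (chr11:69455924-69469242, GRCh37, plus strand), stood at 199.6, 201 and 185 CPM in hESCs and at 289, 267 and 300.03 CPM in NMP-L cells. All 3 NMP-L libraries lay above all hESC libraries, with the lowest of them, replicate 2, still well clear. The change was 1.46-fold (95% interval 1.30 to 1.64; log2 fold change 0.55, SE 0.077, adjusted p = 9.48e-05 in edgeR), and it did not pass when counts were scaled to HPRT1 (0.25, adjusted p = 0.275), within a range of adjusted p from 5.69e-08 to 0.275 over all alternatives.

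CCND2 (chr12:4378937-4414519, plus strand), which can stand in for CCND1 as a partner of CDK4 and CDK6, stood at 209.9, 184 and 199 CPM in hESCs and at 185, 194 and 209 CPM in NMP-L cells. The conditions overlapped almost completely, with the highest value in an hESC library and the next in an NMP-L library. Its log2 fold change was -0.012 (SE 0.081, edgeR adjusted p = 0.913), and the 95% interval, from -0.19 to 0.17, leaves room for changes of either sign smaller than that of CCND1. CCND3 (chr6:41902672-42018095, minus strand), the remaining D cyclin, stood at 15.9, 18.9 and 18.4 CPM in hESCs and at 17.9, 17.4 and 15.8 CPM in NMP-L cells. Here too the libraries interleaved, and the log2 fold change was -0.059 (SE 0.11, 95% interval -0.31 to 0.19, adjusted p = 0.677). Exons of CCND1 overlap those of ORAOV1 and exons of CCND2 those of CCND2-AS1 on the opposite strand. Whether reads were counted by strand is not given in the sources used here; the partners had between 179 and 286 counts and between 2 and 14 counts, far below the cyclins themselves.

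CDK4 and CDK6, the kinases that D cyclins activate, were both higher in NMP-L cells, although neither passed when counts were scaled to HPRT1, where the log2 fold change was -0.0057 for CDK4 (adjusted p = 0.983) and 0.25 for CDK6 (adjusted p = 0.274). CDK6 (chr7:92234235-92465887, minus strand) stood at 88.8, 65.5 and 68.7 CPM in hESCs and at 98.9, 107 and 118 CPM in NMP-L cells. The hESC library of replicate 1 was well above the other two and came within reach of the lowest NMP-L library without crossing it. The change was 1.45-fold (95% interval 1.21 to 1.73; log2 fold change 0.54, SE 0.12, edgeR adjusted p = 0.00239).

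CDK4 (chr12:58141510-58149796, minus strand) stood at 153, 166 and 152 CPM in hESCs and at 202, 204 and 169 CPM in NMP-L cells. The NMP-L library of replicate 3 lay close above the highest hESC library, and the other NMP-L libraries were well above it. The change was 1.22-fold (95% interval 1.06 to 1.40; log2 fold change 0.29, SE 0.090, edgeR adjusted p = 0.0176). This call rested on single libraries: the adjusted p was 0.0845 without hESC replicate 3, 0.0644 without NMP-L replicate 1 and 0.0806 without NMP-L replicate 2, within a range from 6.84e-05 to 0.983 over all alternatives. With each library left out in turn, its log2 fold change ran from 0.24 to 0.37. Exons of CDK4 also overlap those of TSPAN31 on the opposite strand, which had 335, 361 and 347 counts in hESCs and 539, 508 and 509 in NMP-L cells against at least 2868 for CDK4.

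Of the E cyclins, which activate CDK2, CCNE1 was lower in NMP-L cells, except that its log2 fold change was 0.083 (adjusted p = 0.544) when counts were scaled to GAPDH. CCNE1 (chr19:30302898-30315219, plus strand) stood at 46.6, 50.3 and 45.1 CPM in hESCs and at 33.5, 34.3 and 34.2 CPM in NMP-L cells. Every NMP-L library lay below every hESC library, and the NMP-L libraries lay within 1 CPM of one another. The level was 1.39-fold higher in hESCs (log2 fold change -0.48, SE 0.088, 95% interval -0.67 to -0.28, edgeR adjusted p = 0.000724).

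CCNE2, the second E cyclin, was scarce, with 33, 32 and 36 counts at D0 and 41, 59 and 84 counts at D3, or 1.76, 1.65 and 1.88 CPM and 1.84, 2.81 and 3.51 CPM. The NMP-L library of replicate 1 lay among the hESC libraries and the other NMP-L libraries lay above them. Its log2 fold change of 0.63 (SE 0.25, 95% interval 0.070 to 1.19) did not pass at an adjusted p of 0.054 in edgeR (unadjusted p = 0.0305). Without NMP-L replicate 1 the adjusted p was 0.0105, within a range from 0.00638 to 0.435 over all alternatives. Exons of CCNE2 overlap those of INTS8 on the opposite strand, which had 1279, 1082 and 1032 counts in hESCs and 1599, 1639 and 2040 in NMP-L cells. INTS8 counts, like those of CCNE2, were thus higher in NMP-L cells, and the values of CCNE2 are uncertain if strand was not used in counting. Whether INTS8 reads added to them was not tested. Of the E cyclins, 1 was thus lower and the other had a higher mean without passing the test, and the difference between their changes was not tested.

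**Figure D2:**
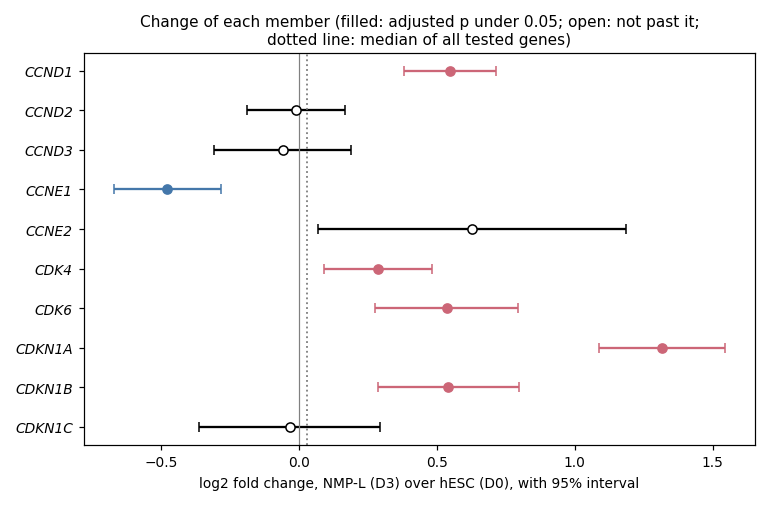
Log2 fold change of each gene, NMP-L (D3) over hESC (D0), with its 95% interval from the edgeR fit (x axis); filled points passed an adjusted p of 0.05, open points did not, and the dotted line is the median of all tested genes at 0.028. CDKN1A stands at 1.32 and CCNE1 at -0.48, although CCNE1 was at 0.083 and CDK4 at -0.0057 when scaled to GAPDH and to HPRT1, respectively.

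Of the CIP/KIP inhibitors, CDKN1A and CDKN1B were higher in NMP-L cells and CDKN1C passed no test. CDKN1A (p21; chr6:36644237-36655114, plus strand), the inhibitor known for arresting the cell cycle after DNA damage, stood at 27.9, 26.7 and 33.2 CPM in hESCs and at 74.2, 76.3 and 68.1 CPM in NMP-L cells. The lowest NMP-L library stood far above the highest hESC library. The change was 2.49-fold (95% interval 2.13 to 2.91; log2 fold change 1.32, SE 0.10, edgeR adjusted p = 9.98e-07), and 6.29% of tested genes had a higher log2 fold change. The call held under all 20 alternatives, GAPDH and HPRT1 scaling and each library left out included. Exons of DINO overlap those of CDKN1A on the opposite strand, and DINO had 0 or 1 count in each library.

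CDKN1B (p27; chr12:12838432-12875303, plus strand), the inhibitor that accumulates in quiescent cells, stood at 47.4, 38.0 and 39.2 CPM in hESCs and at 55.1, 57.3 and 69.0 CPM in NMP-L cells. The conditions did not overlap, and the highest library of each (hESC replicate 1 and NMP-L replicate 3) stood apart from the other two. The change was 1.46-fold (95% interval 1.22 to 1.74; log2 fold change 0.54, SE 0.12, edgeR adjusted p = 0.00206), and it did not pass when counts were scaled to HPRT1 (0.25, adjusted p = 0.294). CDKN1C (p57; chr11:2904443-2907005, minus strand), an imprinted gene linked to cell cycle exit in the embryo, stood at 15.0, 19.6 and 15.1 CPM in hESCs and at 19.1, 15.8 and 13.7 CPM in NMP-L cells. The libraries interleaved, with the highest value in an hESC library and the lowest in an NMP-L library, and the log2 fold change was -0.034 (SE 0.15, 95% interval -0.36 to 0.30, adjusted p = 0.863).

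Scaled for transcript length, as TPM (transcripts scaled by length and to a common total), the genes kept most of their order between the conditions, and the inhibitor CDKN1A moved up it. In hESCs the mean TPM ran from CDK4 (164 ± 5.17, SD, n = 3) through CCND1 (92.6 ± 4.04), CCND2 (61.2 ± 5.18), CCNE1 (52.7 ± 1.97), CDKN1B (34.1 ± 4.79), CDKN1A (28.6 ± 3.61), CDKN1C (19.7 ± 2.71), CCND3 (17.7 ± 1.30) and CDK6 (12.8 ± 2.37) to CCNE2 (1.34 ± 0.107). The neighbours CDKN1B and CDKN1A, and CDKN1C and CCND3, overlapped between libraries and were not separated. In NMP-L cells CDK4 (213 ± 15.0) and CCND1 (145 ± 13.0) again led, and CDKN1A (76.0 ± 2.00) came next, above CCND2 (64.9 ± 6.19) in every library. CDKN1B (53.2 ± 8.55) overlapped CCND2 and stood above CCNE1 (40.6 ± 1.72). CDKN1C (20.6 ± 2.95), CDK6 (19.8 ± 2.43) and CCND3 (18.5 ± 0.699) overlapped as neighbours, and CCNE2 (2.22 ± 0.750) was again lowest.

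Summed by family, TPM was higher in NMP-L cells for the D cyclins, the kinases and the inhibitors and lower for the E cyclins, and in no family did hESC and NMP-L libraries overlap. Taken singly and in CPM, 61.6% of all tested genes did not overlap either. The D cyclins summed to 172 ± 6.17 TPM in hESCs and 228 ± 17.8 TPM in NMP-L cells. CCND1 made up 54.0% ± 1.61 of that sum in hESCs and 63.4% ± 1.26 in NMP-L cells, and CCND2 made up 35.6% ± 2.04 and 28.4% ± 1.34. The D cyclin pool thus shifted in make-up towards CCND1, with 1.52 ± 0.132 CCND1 transcripts for each of CCND2 in hESCs and 2.24 ± 0.146 in NMP-L cells. The sum of CDK4 and CDK6 was 177 ± 4.87 TPM and 233 ± 12.7 TPM, of which CDK4 made up 92.8% ± 1.32 and 91.5% ± 1.53. Set against the D cyclins, the kinases stood at a TPM ratio of 1.03 ± 0.0420 in hESCs and 1.03 ± 0.131 in NMP-L cells, and the libraries overlapped.

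The inhibitor sum was 82.4 ± 3.31 TPM in hESCs and 149.8 ± 4.74 TPM in NMP-L cells, and the share of CDKN1A in it was 34.7% ± 3.97 and 50.8% ± 2.78. CDKN1B was the most abundant of the 3 inhibitors in hESC replicates 1 and 2, and CDKN1A in hESC replicate 3 and in every NMP-L library. The ratio of D cyclin to inhibitor TPM was 2.09, 2.12 and 2.03 in hESCs and 1.52, 1.46 and 1.60 in NMP-L cells. More D cyclin transcript in NMP-L cells was thus accompanied by a larger gain of inhibitor transcript, in TPM and in proportion, and the ratio was lower in each NMP-L library than in any hESC library. The E cyclins summed to 54.0 ± 1.87 TPM in hESCs and 42.8 ± 2.43 TPM in NMP-L cells, with CCNE1 at 97.5% ± 0.281 and 94.9% ± 1.47 of the sum. D cyclin transcript stood at 3.18 ± 0.159 times the E cyclin sum in hESCs and at 5.33 ± 0.213 times in NMP-L cells, again without overlap. These sums and ratios are descriptions of TPM values and were not tested.

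**Figure D3:**
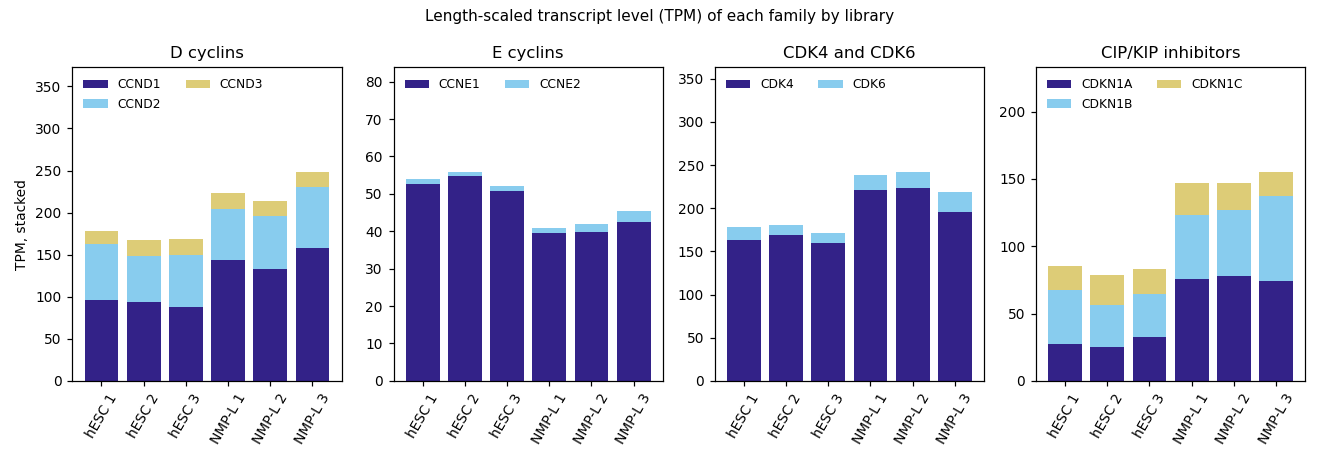
Summed TPM of the D cyclins, E cyclins, CDK4 with CDK6, and CIP/KIP inhibitors (y axis, linear from 0, stacked by gene) in each of the 3 hESC and 3 NMP-L libraries. The inhibitor bars run from 78.9 to 85.4 TPM in hESCs and from 147 to 155 TPM in NMP-L cells, and the E cyclin bars from 52.1 to 55.9 TPM and from 40.9 to 45.6 TPM.

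The other inhibitor family, INK4, which binds CDK4 and CDK6 directly, was low in both conditions, with CDKN2A, CDKN2B and CDKN2C almost silent and CDKN2D above the floor. CDKN2A had 4, 3 and 4 counts in hESCs and 5, 2 and 3 in NMP-L cells, CDKN2B 2, 0 and 4 and 3, 1 and 2, and CDKN2C 1 count in 1 library of each condition. None of these 3 genes passed the filter, and with levels near the floor of 3 counts no difference was detectable at this depth. CDKN2D had 35, 23 and 32 counts against 56, 51 and 45, and its log2 fold change of 0.53 (SE 0.24) did not pass in edgeR (adjusted p = 0.083, unadjusted p = 0.0504) or DESeq2, and passed in limma on TPM.

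Of the pocket proteins, the substrates of CDK4 and CDK6, RBL1 (p107) was higher in NMP-L cells (log2 fold change 0.58, SE 0.12, edgeR adjusted p = 0.00175). RB1, the retinoblastoma protein, had a log2 fold change of 0.095 (adjusted p = 0.6) and RBL2 (p130) one of 0.19 (adjusted p = 0.147). RBL1 stood at 27.6, 20.2 and 22.8 CPM in hESCs and at 33.4, 37.3 and 34.4 CPM in NMP-L cells, without overlap. Of the 10 E2F and DP factors, 3 were higher and 2 lower, no more than the 55.8% of all tested genes that passed (29.1% higher and 26.7% lower), with a median log2 fold change of 0.16. E2F2 and E2F3 passed no test (log2 fold changes of 0.37 and -0.039, edgeR adjusted p = 0.0618 and 0.739). E2F7, a repressive E2F, was higher by 0.62, TFDP1 by 0.58 and E2F6 by 0.29. E2F1, an activator, fell by 0.67 (36.8, 43.5 and 40.8 CPM in hESCs against 26.5, 26.1 and 23.7 CPM) and TFDP2 fell by 1.16. The DP partners thus moved apart, TFDP1 from 72.1 ± 2.92 to 108 ± 3.62 CPM and TFDP2 from 81.3 ± 1.26 to 36.4 ± 0.812 CPM (SD, n = 3). Scaled to GAPDH 7 of the 10 factors were higher and 1 lower, where 10027 of all 15517 tested genes were higher and 1428 lower. Scaled to HPRT1 0 were higher and 2 lower, where 1793 of all tested genes were higher and 5294 lower.

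Of 14 replication genes under E2F control, 7 were lower in NMP-L cells and 1 higher, where 26.7% and 29.1% of all tested genes were, with a median log2 fold change of -0.22 against 0.028. The 8 calls are close to the 55.8% of all tested genes that passed. The helicase subunits MCM5 (fell by 0.59), MCM6 (fell by 0.56) and MCM2 (fell by 0.44) led the lower genes, while TYMS, a gene of nucleotide synthesis, was higher by 0.43. Scaling to a single gene shifts all genes alike, and the list then gave 9 higher and 0 lower (GAPDH) or 0 higher and 9 lower (HPRT1), which does not bear on its place among other genes. Without NMP-L replicate 3 the list gave 1 higher and 4 lower. Of CDK2 and its 6 activators, CCNA2, the A cyclin of dividing somatic cells, was higher by 0.27 (adjusted p = 0.0451), and CCNA1, the A cyclin of the germ line, fell by 3.22, from 16.8, 14.9 and 15.2 CPM to 1.57, 1.81 and 1.63 CPM. The phosphatase CDC25A fell by 0.40, and CDK2 itself had a log2 fold change of 0.21 (SE 0.094, adjusted p = 0.0759). The list gave 0 genes higher and 2 lower under RLE scaling, when scaled to HPRT1 and without hESC replicate 2, hESC replicate 3, NMP-L replicate 2 or NMP-L replicate 3, so the call of CCNA2 did not hold there.

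Among 11 subunits of the ubiquitin ligases that degrade D and E cyclins and CIP/KIP proteins, 3 were higher and 4 lower. Their median log2 fold change was -0.18, and of all tested genes 55.8% passed (29.1% higher and 26.7% lower). Scaled to GAPDH 10 were higher and 0 lower, where 10027 of all 15517 tested genes were higher and 1428 lower. Scaled to HPRT1 0 were higher and 6 lower, where 1793 of all tested genes were higher and 5294 lower. Such scaling shifts all genes alike. CKS1B and SKP2, which target CDKN1B for degradation, were higher by 0.49 and 0.22, as was CUL4B by 0.40. FBXW7, which targets E cyclins, fell by 0.34, CUL4A by 0.25 and RBX1 by 0.25. Several of these calls lay close to the threshold: 2 genes of the list passed without hESC replicate 3, 2 without NMP-L replicate 2 and 3 without NMP-L replicate 3.

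**Figure D4:**
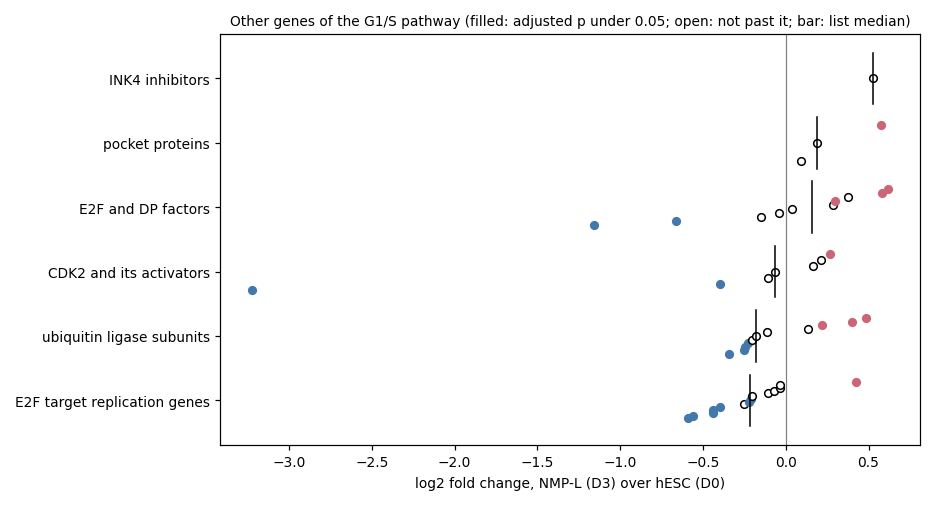
Log2 fold change, NMP-L (D3) over hESC (D0), of each tested gene in the 6 other lists of the G1/S pathway (x axis; points are offset vertically within a list for legibility); filled points passed an adjusted p of 0.05 in edgeR, open points did not, and the bar is the list median. CCNA1 stands farthest to the left at -3.22 and E2F7 farthest to the right at 0.62, and the E2F target genes lie mainly to the left, although scaling to GAPDH shifts all genes to the right, with 0 of the E2F target genes then lower.

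All directions above in CPM or from the main edgeR fit are relative to the bulk of transcripts, on which TMM scaling centres the libraries. The TPM sums and ratios carry no TMM factors. On log2(TPM + 0.1) the median log2 fold change of all tested genes was 0.12. GAPDH itself was lower in NMP-L cells (log2 fold change -0.55, adjusted p = 0.000144) and HPRT1 had a log2 fold change of 0.28 (adjusted p = 0.0689). Scaling to GAPDH moved the median of all tested genes to 0.59, where 10027 genes were higher and 1428 lower, and scaling to HPRT1 moved it to -0.27, where 1793 were higher and 5294 lower, against 4512 and 4141 under TMM. Relative to those medians, CDKN1A stood at 1.29 and 1.28, CCND1 at 0.52 and 0.52, CDK6 at 0.51 and 0.52, CDKN1B at 0.52 and 0.52, CDK4 at 0.25 and 0.26, and CCNE1 at -0.50 and -0.51. Scaling to a single gene shifts all genes alike, so these values were bound to be nearly equal under either scaling. Their agreement is no separate support for the 6 changes.

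Within each condition, the spread of several genes between libraries ran with their base composition. Across 15094 genes, hESC replicate 1 changed by -0.13 on the log2 scale for each 10% of GC relative to the mean of its condition, and NMP-L replicate 3 by -0.086, while the other 4 libraries ran from -0.013 to 0.099. In hESC replicate 1 the AT-rich transcripts of CDK6 (39.7% GC), CDKN1B (42.7%) and CCND2 (46.7%) lay above the mean of the hESC libraries by 0.27, 0.20 and 0.089 on the log2 scale. In the same library the GC-rich transcripts of CDKN1C (63.8% GC), CDKN1A (58.1%) and CCND3 (56.2%) lay below it. CCNE2, the most AT-rich of the genes at 36.9% GC, lay at its mean in hESC replicate 1 and above it in NMP-L replicate 3. After each library was corrected for GC content and transcript length within its condition, the coefficient of variation of CDK6 was 5.56% in hESCs and 1.72% in NMP-L cells, against 17.0% and 8.77% before. It was smaller for 7 of the 10 genes in each condition, and larger for the others, such as CCND1 (5.53% and 8.11%, against 4.36% and 5.88%). With this correction 7 of the 10 genes passed the test, as did 10225 of all 15517 tested genes, and the count is close to that background. CCNE2 was added (adjusted p = 0.0315), and the other 6 kept their direction. When the correction was made across conditions instead, 6 passed, as did 9916 of all tested genes, and CCNE2 did not (log2 fold change 0.41, adjusted p = 0.126). The log2 fold change was then 0.38 for CDK6 and 0.41 for CDKN1B, against 0.54 for each in the main fit. For CDKN1A it was 1.46 against 1.32, for CCND1 0.52 against 0.55, for CDK4 0.27 against 0.29 and for CCNE1 -0.49 against -0.48.

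**Figure D5:**
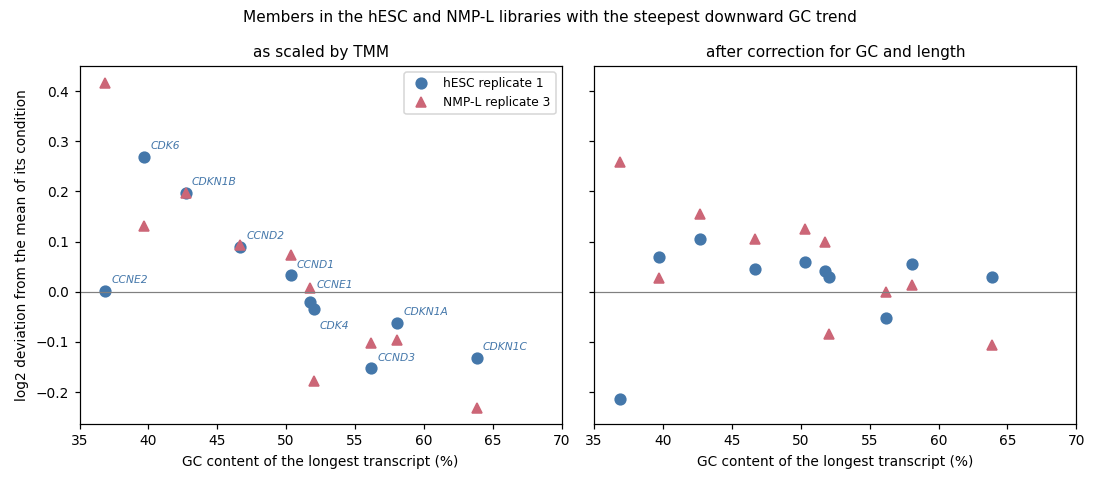
Deviation of each of the 10 genes from the mean of its condition on the log2 scale (y axis) against the GC content of its longest transcript in percent (x axis), in hESC replicate 1 (circles) and NMP-L replicate 3 (triangles), as scaled by TMM (left) and after correction for GC and length within conditions (right). Genes are labelled at the hESC circles on the left, where the values run from 0.27 for CDK6 to -0.15 for CCND3.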

How the data were processed

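Expression was measured by RNA-seq of polyadenylated RNA (single-end reads of 76 bases) in 3 hESC and 3 NMP-L libraries. The authors deposited RSEM expected counts and, beside them, TPM values for 27672 genes; per the labels, the submitters' processing notes name cutadapt 1.9.1, STAR 2.5.2a, RSEM 1.3.0, DESeq2 1.12.3 and hg19, without the annotation or strand setting. Counts came without normalization between libraries, and 8.44% of genes had a fractional expected count, none of the 10 genes among them. There were 0 columns of other samples.

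Rounded expected counts were fitted with edgeR 4.0.16 (R 4.3.3), using filterByExpr with a minimum count of 10, TMM scaling, glmQLFit and glmQLFTest for condition over all 6 libraries, with Benjamini-Hochberg adjustment over 15517 genes and a threshold of 0.05. The SE is the log2 fold change divided by the square root of F. CPM are scaled by TMM, TPM serve comparisons between genes, exact permutation tests are two-sided on log2(CPM + 0.1), and n = 3 libraries limits all precision. Positions are from the GENCODE annotation of GRCh37. Scripts were tested on simulated counts.

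The 10 genes and the lists were chosen with earlier results of these data known. The 10 genes were all named; from each list, all genes where it has at most 4, and otherwise at most 3 in each direction by size of log2 fold change among those past the threshold with 1 CPM or more in the higher condition. CDK2, E2F2, E2F3, MSGN1 and the genes whose exons overlap those of the 10 were added to this rule once their values were known. Alternatives were RLE, upper-quartile and library size scaling, GAPDH and HPRT1 scaling, DESeq2 1.42.0, limma 3.58.1 on log2(TPM + 0.1), 2 other filters, a replicate block, each library left out and, chosen after the data had been seen, a lowess correction for GC content and length (span 0.3). Protein sequences were not analysed here, and some genes of the lists planned are not reported here.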

Additional observations from a re-analysis of the deposited data

How the results depend on the processing

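The count of 6 of the 10 genes past the threshold ran from 5 to 6 when a library was left out and from 6 to 9 under the other settings, except that it was 2 (1 higher and 1 lower) when scaled to HPRT1, where CCND1, CDK6 and CDKN1B each had a log2 fold change of 0.25 and did not pass, and CDK4 stood at -0.0057; the count by 2-fold was 5 when scaled to GAPDH. The number of all genes past it ran from 7087 (scaled to HPRT1) to 11455 (scaled to GAPDH). Libraries of the same replicate number had correlations of their deviations of -0.342, -0.064 and -0.125, and no library correlated best with its own number. These deviations also carry the GC trends of the libraries, so they cannot tell whether the libraries were paired. With the replicate block 6 of the 10 genes and 7560 of all genes passed, and 3 ubiquitin ligase subunits.

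Sign changes among genes that had not passed were as follows. CCND2, CCND3 and CDKN1C stood at 0.064, 0.014 and 0.039 by library size, at 0.085, 0.064 and 0.060 with limma on TPM, and at 0.55, 0.50 and 0.51 when scaled to GAPDH, where all 3 passed. With libraries left out, CCND2 ran from -0.063 to 0.031 and CDKN1C from -0.17 to 0.097. With the GC and length correction across conditions CCND3 was at 0.036 (0.037 with the replicate block as well) and CDKN1C at 0.24 with or without the replicate block. Of the genes that had passed, CCNE1 stood at 0.083 when scaled to GAPDH.

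Among the lists, INK4 gave 1 call by library size, GAPDH, limma on TPM and the GC correction across conditions with and without replicate block. Pocket proteins gave 2 by library size and with the GC correction within conditions (with or without replicate block), 3 by GAPDH and 0 by HPRT1. E2F and DP factors gave 8 by GAPDH and with the GC correction across conditions, and 2 by HPRT1. CDK2 and its activators gave 5 by library size, limma on TPM and the GC correction across conditions, and 6 by GAPDH. With the replicate block they gave 2 (0 higher), or 4 (0 higher) with the GC correction across conditions as well, so that CCNA2 was not called higher in either. With the block and the GC correction within conditions they gave 4 (2 higher and 2 lower). Ubiquitin ligase subunits gave 4 with limma on TPM and from 2 to 7 with libraries left out, and E2F target genes from 5 to 9 with libraries left out. The CDK4 share of its family changed by -1.30 percentage points by TPM and by -4.04 by CPM. The cause of these differences was not tested. Depth limits CCNE2, CDKN2D and the other INK4 genes most, which rest on fewer than 100 counts a library.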
